A study of Drosophila melanogaster with 8 samples.

Results

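The cytosolic ribosomal protein genes were taken by their FlyBase symbols, as every protein-coding gene whose symbol starts with RpL or RpS followed by a digit or a P. The -like genes, pseudogenes and S6 kinases were left out. The rule found 82 genes among the 17468 gene IDs counted, 47 for the large and 35 for the small ribosomal subunit. RpL19, RpL27A, RpL31, RpS10b and RpS12, which the annotation also lists, could not be matched to a counted ID and were not analysed here. Of the 82 members, 79 had enough counts to be tested, and the other 3 (RpS10a, RpL10Aa and RpS28a) are described by their counts.

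Each cytosolic ribosome is built from one copy of nearly every one of these proteins around the ribosomal RNAs. The RpLP proteins form the stalk of the large subunit, where elongation factors dock. In Drosophila, females load large amounts of ribosomes and of ribosomal protein mRNA into the egg, and the loss of one copy of many of these genes gives the Minute phenotype of slow development and short, thin bristles. A few proteins are encoded by paralog pairs, of which one copy is often used mainly in the germline.

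The 8 libraries came from whole Drosophila melanogaster embryos in 4 groups of 2 libraries each. These were zen[7] homozygous embryos at stage 6-7 (gastrula), zen[7]/TM3, ftz-lacZ heterozygous embryos at stage 6-7, zen[7] homozygous embryos at stage 5 (cellular blastoderm) and zen[7]/TM3, ftz-lacZ heterozygous embryos at stage 5. All 4 groups carry the zen[7] allele of zen, a homeobox gene needed for the amnioserosa, and the heterozygotes also carry TM3, a balancer of chromosome 3 with a ftz-lacZ transgene. Each pool is labelled N = 100 embryos, the genotype of the mothers is not given in the sources used here, and what separates the 2 pools of a group is not stated beyond the word biological, so a p-value here reflects only how far such pools differ, which may be technical.

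Gene counts summed to 29669956 to 37770105 per library. The RNA of zen stood at 58.9 and 53.8 CPM (read counts scaled to the TMM-adjusted library size) in homozygotes at stage 6-7, against 41 and 58.2 CPM in heterozygotes. At stage 5 it stood at 154 and 134 CPM in homozygotes, against 112 and 106 CPM in heterozygotes, so the level of zen RNA does not check the genotype labels. Of 11 amnioserosa marker genes, 8 were called lower in homozygotes at stage 6-7 and 7 at stage 5, against 1.25% and 1.34% of all genes. In whole embryos, fewer cells of a type and less RNA per cell cannot be told apart.

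Ribosomal protein transcripts were among the most abundant RNAs of these embryos. Of the 50 highest genes by CPM per kb of exon, 42 were members, as were 70 of the highest 100 and 77 of the highest 500, out of 9187 tested genes with an annotated length. The mean level over the 8 libraries had a median of 2150 CPM per kb, with quartiles at 1383 and 2633 CPM per kb. RpL41, which encodes a very short basic peptide of the large subunit, was the highest at 12427 CPM per kb, and its lowest library (10525 CPM per kb) lay above the highest library of the next gene.

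RpL39, another very short protein of the large subunit, followed at 4067 CPM per kb. RpLP2, a stalk protein, had 3833 CPM per kb, RpL23 had 3514 CPM per kb and RpS18, of the small subunit head, had 3377 CPM per kb. The ranges of these 4 genes over the libraries overlapped, from 3518 to 5044 CPM per kb for RpL39 and from 2926 to 4173 CPM per kb for RpS18. Within each single library, however, the 4 genes stood in this same order. At the other end, RpS15Ab stood at 159 CPM per kb, RpL37-2 at 1.65 and RpS19b at 1.33. The lowest were RpS28a, RpS10a and RpL10Aa, at 0.365, 0.101 and 0.0832 CPM per kb. Each of the 5 lowest genes belongs to a pair of duplicated genes.

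**Figure D1:**
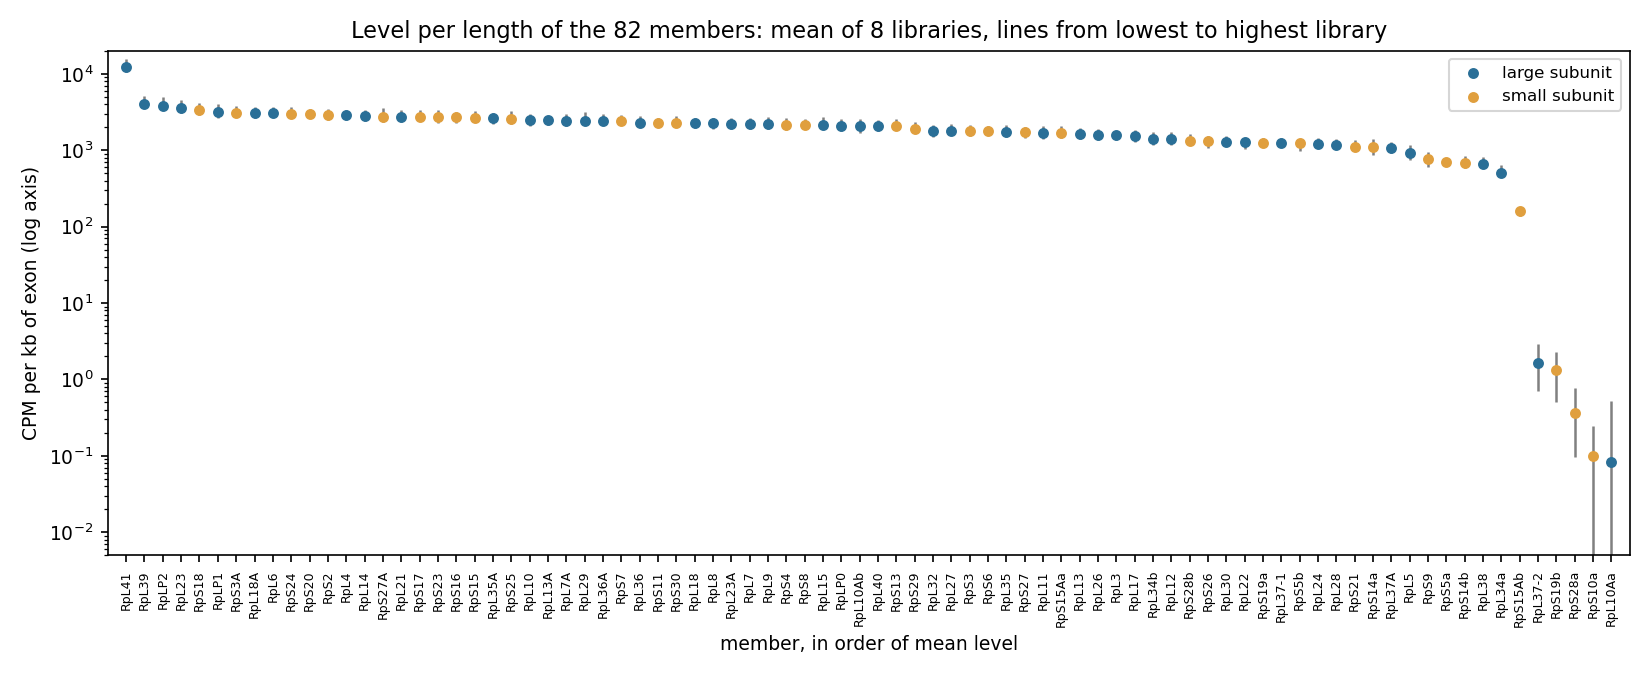
Level of each of the 82 members in CPM per kb of exon (log axis), in order of the mean over 8 libraries. Points are means, lines run from the lowest to the highest library, and a line that reaches the lower edge includes libraries at 0. RpL41 stands above the rest at 12427, a run of 77 genes ends with RpS15Ab at 159, and 5 duplicated genes lie at 1.65 or below.

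Across libraries the 77 members with a mean above 10 CPM varied little. Their coefficient of variation over the 8 libraries had a median of 10.1%, from 7.03% (RpS5a) to 13.5% (RpLP2), against a median of 19.1% for the 5490 tested genes above the same floor. That floor does not match the sets for level, as most members lie far above it, so the difference is not shown to be a trait of the family. Per kb these 77 genes spanned a 78-fold range. Genes of the large subunit held 60.1% or 60.2% of all member counts in each stage 6-7 library and 60.5% to 60.8% in each stage 5 library. The balance between the subunits was thus nearly the same in all 8, although the stages did not overlap.

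Together the members took 14.9% and 15% of all gene counts in the homozygous stage 6-7 libraries, against 15.9% and 13.5% in the heterozygous stage 6-7 libraries. At stage 5 they took 16.2% and 14.3% in homozygotes, against 14.3% and 13.8% in heterozygotes. The group means were 14.9% ± 0.0735 in homozygotes and 14.7% ± 1.69 in heterozygotes at stage 6-7, and 15.3% ± 1.33 in homozygotes and 14% ± 0.337 in heterozygotes at stage 5 (SD, n = 2 each). The groups overlapped at stage 6-7, and at stage 5 the lower homozygous library and the higher heterozygous library differed by less than the replicates of either group. Exact 95% binomial intervals, which cover counting error only, did not overlap between the replicates of any group (14.84% to 14.87% and 14.95% to 14.97% in the closest pair, homozygotes at stage 6-7).

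**Figure D2:**
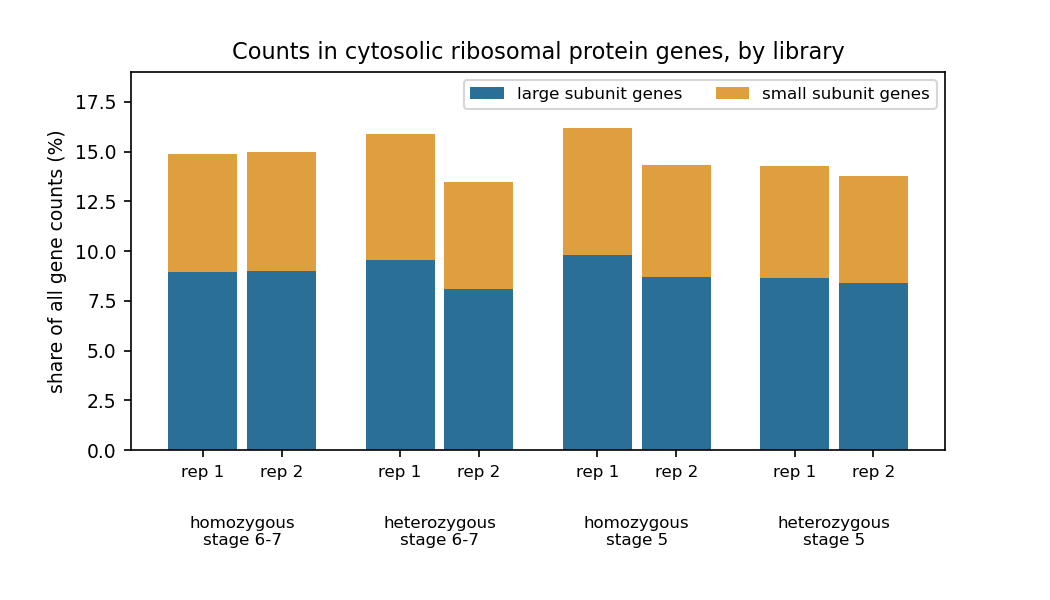
Share of all gene counts (%) that fell in the 82 members, by library, split into large and small subunit genes. The shares run from 13.5% to 16.2%, and the 2 libraries of heterozygotes at stage 6-7 (15.9% and 13.5%) and of homozygotes at stage 5 (16.2% and 14.3%) stand farther apart than those of the other 2 groups.

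The libraries of a group differed in the whole family at once. Homozygous stage 5 replicate 1 exceeded replicate 2 in 78 of 79 tested members, by a median log2 difference of 0.24, and heterozygous stage 6-7 replicate 1 exceeded replicate 2 in 77 of 79, by 0.23. The median over all tested genes was 0.00 and -0.04 in these 2 pairs. In heterozygotes at stage 5 the shift was 0.05, with 73 members higher in replicate 1, and in homozygotes at stage 6-7 it was 0.00, with 43 higher and 36 lower. Mitochondrially encoded genes took 2.99% and 1.97% of gene counts in homozygotes at stage 5, and 2.03% and 3.17% in heterozygotes at stage 6-7. Reads without a unique position made up 10.9% and 9.29% of all counts in homozygotes at stage 5, and 9.96% and 13.4% in heterozygotes at stage 6-7. The part of these properties in the results below was not tested.

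**Figure D3:**
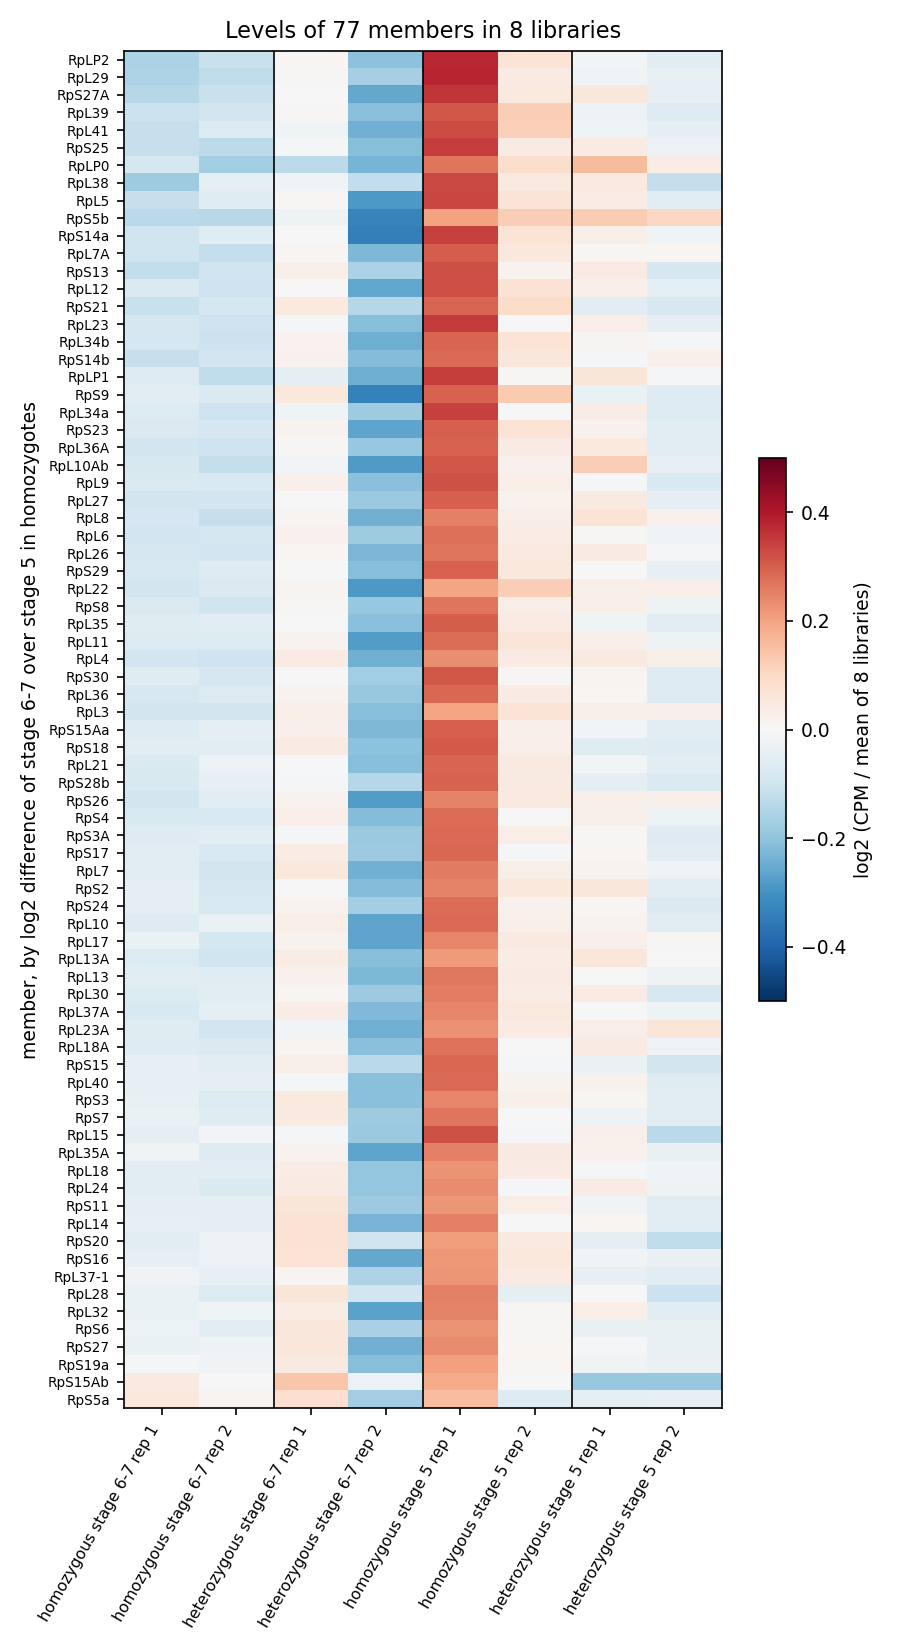
Level of the 77 members above 10 CPM in each library, as log2 of CPM over the gene's mean of 8 libraries, with genes ordered by their stage difference in homozygotes. The column of homozygous stage 5 replicate 1 is high nearly from top to bottom (median 0.280) and that of heterozygous stage 6-7 replicate 2 is low (median -0.211), while RpS15Ab and RpS5a at the bottom depart from the rest.

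The first question was how the family changed between the blastoderm and the gastrula. In homozygotes, 35 of 79 members fell at stage 6-7 and 2 rose (quasi-likelihood test of edgeR, p adjusted by Benjamini-Hochberg over all 9360 genes tested and below 0.05). That is 44.3% and 2.53% of the members, and the same test called 29.0% of all genes lower and 31.1% higher. The members' median log2 difference was -0.23, against 0.00 for all genes, and 77 of 79 lay below 0, from -0.36 to -0.02. When libraries were scaled by their totals alone, the median of all genes moved to 0.20 and that of the members to -0.03. A change of scaling moves all genes alike, so the gap of -0.22 between them stays the same by construction and is no check. The calls changed, to 0 members lower and 2 higher, against 21.2% and 38.9% of all genes.

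Of the 46 large subunit genes tested, 23 fell and 1 rose, and of the 33 small subunit genes 12 fell and 1 rose. On the TMM scale both homozygous stage 6-7 libraries lay below both stage 5 libraries in 74 of 79 members, and above them in 2. The shares of all genes were 40.2% and 40.9%. By the family's share of gene counts, both stage 6-7 libraries (14.9% and 15%) lay between the stage 5 libraries (16.2% and 14.3%). The calls of members in homozygotes rest in part on 1 library. Without homozygous stage 5 replicate 1, 0 members fell and 1 rose, against 25.2% and 26.4% of all genes, and the median was -0.11. Without replicate 2, 66 fell, against 28.7% of all genes. Without homozygous stage 6-7 replicate 1 there was 1 fall, against 22.7% of all genes, and without replicate 2 there were 5, against 22.3%, with the median at -0.23 in both cases.

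All 3 stalk genes fell in homozygotes, and RpLP2 and RpLP0 were among the 10 deepest falls. RpLP2 stood at 2077 and 2144 CPM in homozygotes at stage 6-7, against 3008 and 2427 CPM at stage 5, a log2 difference of -0.36 (SE 0.104, edgeR adjusted p = 0.00781). RpLP0, the scaffold of the stalk, stood at 2630 and 2473 CPM at stage 6-7, against 3360 and 2968 CPM at stage 5 (log2 -0.31, SE 0.0889, adjusted p = 0.00792). RpLP1, the partner of RpLP2, had 2306 and 2206 CPM at stage 6-7, against 3064 and 2421 CPM at stage 5 (log2 -0.28, SE 0.107, adjusted p = 0.0348). In all 3 genes the stages did not overlap, and stage 5 replicate 1 was the highest library.

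Other large subunit genes among the 10 deepest falls were RpL29, RpL39, RpL41, RpL38 and RpL5. RpL29 had 848 and 864 CPM at stage 6-7, against 1231 and 972 CPM at stage 5 (log2 -0.36, edgeR adjusted p = 0.00834). RpL41 had 3676 and 3795 CPM at stage 6-7, against 4980 and 4319 CPM at stage 5 (log2 -0.32, adjusted p = 0.0102). RpL5, which carries 5S ribosomal RNA into the large subunit together with RpL11, had 3231 and 3354 CPM at stage 6-7, against 4417 and 3663 CPM at stage 5 (log2 -0.30, adjusted p = 0.0301). RpL11 itself had a log2 difference of -0.24 and did not pass (adjusted p = 0.0566).

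Small subunit genes with the deepest falls were RpS27A, RpS25 and RpS5b. RpS27A, which is made as a fusion with ubiquitin, had 1476 and 1509 CPM at stage 6-7, against 2092 and 1689 CPM at stage 5 (log2 -0.34, SE 0.109, edgeR adjusted p = 0.0149). RpL40, the other ubiquitin fusion, had a log2 difference of -0.20 (adjusted p = 0.0995), and RpS6, the target of S6 kinase, one of -0.16 (adjusted p = 0.16). RpS25 had 2008 and 1988 CPM at stage 6-7, against 2762 and 2238 CPM at stage 5 (log2 -0.32, adjusted p = 0.0146). Exons of 26 members overlap another annotated gene, among them RpS27A (Ip259), RpL29 (CG9752) and RpL39 and RpL12 (each other), and without the strand setting of the counting their reads cannot be told apart with certainty.

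The 2 members that rose in homozygotes are rare copies. RpS19b, a germline paralog of RpS19a, had 40 and 42 reads at stage 6-7, against 9 and 20 at stage 5, or 1.08 and 1.23 CPM against 0.335 and 0.591 CPM (log2 1.28, SE 0.436, edgeR adjusted p = 0.0205). RpL37-2 had 23 and 37 reads at stage 6-7, against 13 and 10 at stage 5 (log2 1.14, SE 0.465, adjusted p = 0.0468). In homozygotes at stage 5 these counts lie near the minimum count of 10 of the low-count filter. RpL37-2 lost its call with DESeq2 (adjusted p = 0.0938), limma-voom (adjusted p = 0.0655) and a replicate block in edgeR (adjusted p = 0.0508). RpS19b kept its call in each of these. RpS19b had an adjusted p of 0.129 without homozygous stage 5 replicate 1 and 0.0798 without homozygous stage 6-7 replicate 2, and RpL37-2 one of 0.346 without that same stage 6-7 library.

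In heterozygotes, 2 of 79 members fell at stage 6-7 (2.53%) and 1 rose (1.27%), against 26.5% and 28.4% of all genes. The members' median log2 difference was -0.08, against 0.02 for all genes, and it was 0.07 against 0.17 when libraries were scaled by their totals alone. Its sign therefore depends on the scaling. The gap of -0.10 to all genes stays the same by construction, since scaling moves all genes alike, and is no check. Both stage 6-7 libraries lay below both stage 5 libraries in 7 members and above them in 3, against 37.7% and 40.3% of all genes. In most members, then, the 2 stages overlapped, with heterozygous stage 6-7 replicate 1 near the stage 5 libraries and replicate 2 below them. Without replicate 1, 13 members fell and 0 rose, against 23.2% and 25.8% of all genes, and the median was -0.19. Without replicate 2 the median was 0.03, with 0 falls, against 22.1% of all genes.

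RpLP0 fell in heterozygotes too, with 2548 and 2379 CPM at stage 6-7, against 3120 and 2864 CPM at stage 5 (log2 -0.28, SE 0.0889, edgeR adjusted p = 0.0155). RpS5b fell, with 1146 and 926 CPM at stage 6-7, against 1275 and 1253 CPM at stage 5 (log2 -0.29, SE 0.0965, adjusted p = 0.0213). In both genes all stage 6-7 libraries lay below all stage 5 libraries in each genotype, but the calls did not hold in every alternative. RpLP0 had an adjusted p of 0.15 without heterozygous stage 5 replicate 1, 0.0823 without heterozygous stage 6-7 replicate 2 and 0.202 (log2 -0.13) with library totals alone. RpS5b had a log2 difference of -0.14 without heterozygous stage 6-7 replicate 2 (adjusted p = 0.227) and of -0.13 with library totals alone (adjusted p = 0.256). Without heterozygous stage 5 replicate 1 or 2 its adjusted p was 0.102 or 0.0704.

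The only member called higher in heterozygotes was RpS15Ab. It rose, with 127 and 113 CPM at stage 6-7, against 101 and 101 CPM at stage 5 (log2 0.26, SE 0.0943, adjusted p = 0.0329), and its log2 difference in homozygotes was -0.07 (adjusted p = 0.545). Leaving out either heterozygous stage 5 library, either homozygous stage 6-7 library or heterozygous stage 6-7 replicate 1 took the adjusted p of RpS15Ab to between 0.059 and 0.221.

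RpLP2 had 2330 and 2009 CPM in heterozygotes at stage 6-7, against 2295 and 2230 CPM at stage 5, and its log2 difference of -0.06 did not pass (edgeR adjusted p = 0.646). RpL29 had 949 and 841 CPM at stage 6-7, against 933 and 920 CPM at stage 5 (log2 -0.05, adjusted p = 0.711). Both genes were among the deepest falls in homozygotes, and in heterozygotes their stages overlapped. Whether the stage difference depended on genotype was tested by the interaction, which called 0 members, against 0.0107% of all genes higher and 0.0641% lower. The smallest adjusted p was 0.635 (RpS15Ab, log2 -0.33), and DESeq2 and limma-voom also called 0. Before adjustment 2 of 79 members (RpS15Ab and RpS21) lay under 0.05, against 629 of all 9360 genes. The members' median interaction was -0.15, but -0.02 without homozygous stage 5 replicate 1 and 0.10 when heterozygous stage 6-7 replicate 1 was left out as well.

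**Figure D4:**
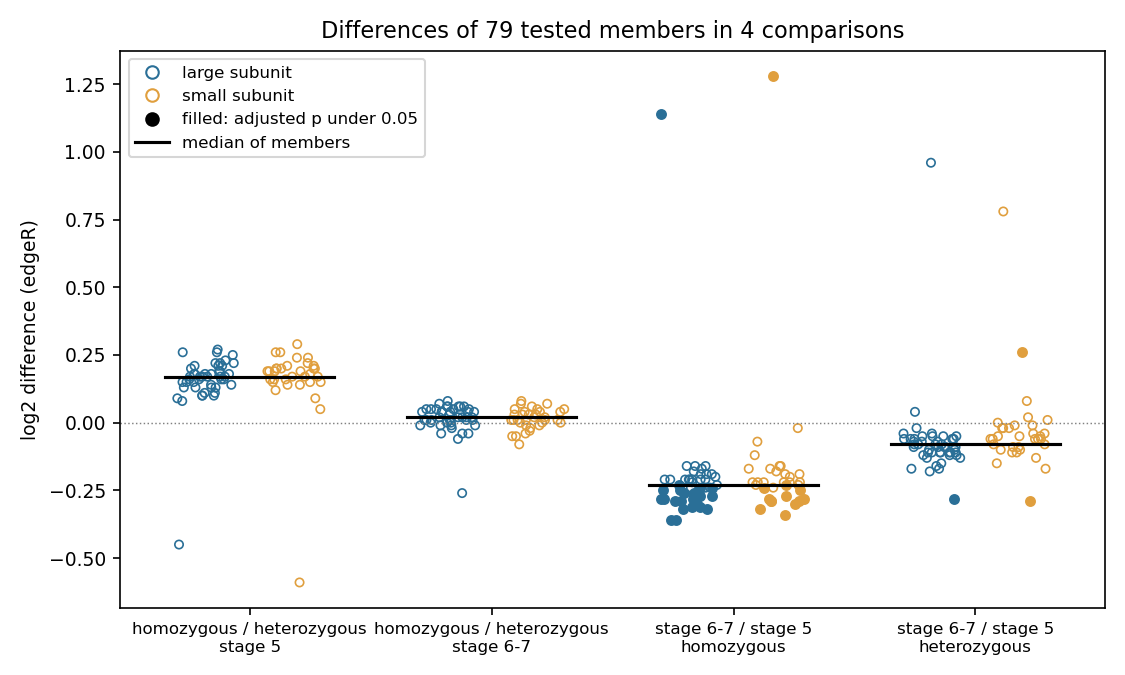
Log2 differences of the 79 tested members in the 4 comparisons (edgeR), with large and small subunit genes side by side, filled points for an adjusted p under 0.05 and bars at the median of all members. The medians lie at 0.17 and 0.02 for homozygous over heterozygous embryos at stage 5 and stage 6-7, and at -0.23 and -0.08 for stage 6-7 over stage 5 in homozygotes and heterozygotes. With library totals alone the last value is 0.07. Homozygous stage 5 replicate 1 enters the first and the third comparison.

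The second question was whether the genotypes differed. At stage 6-7, 0 of 79 members passed the test in either direction, against 0.524% of all genes higher and 1.25% lower in homozygotes. Every member had an edgeR adjusted p of 1, and 0 lay under 0.05 before adjustment, against 706 of all 9360 genes. Neither DESeq2 nor limma-voom called any member. The log2 differences of homozygotes over heterozygotes ran from -0.26 (RpL37-2) to 0.08, with a median of 0.02 and a median SE of 0.0995. The median was 0.14 without heterozygous stage 6-7 replicate 1 and -0.09 without replicate 2, so its sign depends on which of these libraries is used. In every member the 2 heterozygous libraries overlapped with the homozygous ones, against 20.0% of all genes that lay apart with homozygotes higher and 16.2% with homozygotes lower.

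At stage 5, 0 of 79 members passed in either direction, against 0.288% of all genes higher and 1.34% lower in homozygotes. There the members stood higher in homozygotes in 77 of 79 cases, by a median log2 difference of 0.17 with a median SE of 0.0996, while the median of all genes was 0.00. Before adjustment 14 of 79 members lay under 0.05, against 1155 of all 9360 genes, and neither DESeq2 nor limma-voom called any member after it. Both homozygous libraries lay above both heterozygous ones in 49 members and below them in 1, against 21.1% and 21.2% of all genes. Without homozygous stage 5 replicate 1 the median was 0.04, and without replicate 2 it was 0.25, with 2 members called higher, against 1.18% of all genes.

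The smallest adjusted p at stage 5 belonged to RpS15Ab, with 131 and 115 CPM in homozygotes, against 101 and 101 CPM in heterozygotes (log2 0.29, SE 0.0945, edgeR adjusted p = 0.204). RpL39 had 1453 and 1277 CPM in homozygotes, against 1149 and 1119 CPM in heterozygotes (adjusted p = 0.234, log2 0.27). RpL41 had 4980 and 4319 CPM in homozygotes, against 3914 and 3845 CPM in heterozygotes (adjusted p = 0.251, log2 0.26). The genotypes did not overlap in any of the 3 genes. RpS5b had the smallest positive difference, 1340 and 1269 CPM in homozygotes against 1275 and 1253 CPM in heterozygotes (log2 0.05, adjusted p = 0.867), and its libraries overlapped.

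Markers of developmental progress were followed beside the members. At stage 5 the summed level of 5 maternal RNAs that are cleared early (bcd, smg, png, plu and gnu) was 190 and 193 CPM in homozygotes, against 305 and 259 CPM in heterozygotes, and 2 of the 5 (bcd and smg) were called lower, against 1.34% of all genes. Among 7 tested genes of cellularization and gastrulation, T48 and nullo were called lower and 0 higher. With library totals alone T48 rose from stage 5 to stage 6-7 (log2 1.25 in homozygotes and 0.58 in heterozygotes) and nullo fell (-4.87 and -4.93). The 2 calls therefore give no single direction of progress. The summed level of the 7 genes overlapped between the genotypes, with 3186 and 2374 CPM in homozygotes, against 3114 and 2673 CPM in heterozygotes. At stage 6-7 the maternal RNAs summed to 120 and 117 CPM in homozygotes, against 108 and 116 CPM in heterozygotes. Their part in the values of the ribosomal protein genes was not tested.

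Since the heterozygotes carry a balancer, members on chromosome 3 were set beside the others. The 32 tested members on chromosome 3 had a median log2 difference of 0.01 between homozygotes and heterozygotes at stage 6-7, against 0.02 for the 47 on other chromosomes, and 0.16 against 0.19 at stage 5. For stage 6-7 over stage 5 the medians were -0.22 on chromosome 3 and -0.23 elsewhere in homozygotes, and -0.09 and -0.06 in heterozygotes.

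Paralog pairs allow a view that does not depend on library scaling, since the share of a pair's reads is taken within a library. RpS5a (arm X, 17143588 to 17148264 on BDGP6.54) and RpS5b (arm 3R, 14900432 to 14901563) encode versions of one small subunit protein, and RpS5b is the copy enriched in the ovary. RpS5a held 48.6% and 48% of the pair's reads in homozygotes at stage 6-7, against 44.6% and 42.2% at stage 5. In heterozygotes it held 47.2% and 48.1% at stage 6-7, against 42.4% and 42.9% at stage 5. All 4 stage 6-7 libraries lay above all 4 stage 5 libraries, and at each stage the genotypes overlapped. RpS5a had 1003 and 976 CPM in homozygotes at stage 6-7, against 1078 and 925 CPM at stage 5, a log2 difference of -0.02 (SE 0.0994, edgeR adjusted p = 0.888), and one of 0.00 in heterozygotes. Of the pair, RpS5b lay nearer to the members' median log2 difference in homozygotes (-0.23), and RpS5a lay nearer to it in heterozygotes (-0.08). RpS5b fell in both genotypes, by 0.30 on the log2 scale in homozygotes (adjusted p = 0.0156) and by 0.29 in heterozygotes. In homozygotes the call was lost without stage 5 replicate 1 (adjusted p = 0.0559), without stage 6-7 replicate 1 or 2 (adjusted p = 0.0741 or 0.0794) and with library totals alone (log2 -0.10, adjusted p = 0.392), beside the losses in heterozygotes given above.

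RpS15Ab, the minor copy of the RpS15A pair, held 7.27% and 6.94% of its pair's reads in homozygotes at stage 6-7, against 6.28% and 6.62% at stage 5. In heterozygotes it held 7.27% and 7.69% at stage 6-7, against 6.01% and 6.17% at stage 5. Here too the stages did not overlap in either genotype. RpS15Aa, the major copy, had log2 stage differences that did not pass in either genotype, so neither copy was called in homozygotes.

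The shares of RpL34a and RpS14b overlapped between stages. RpL34a held 19.8% and 19.7% of its pair's reads in homozygotes at stage 6-7, against 20.2% and 18.9% at stage 5, and 19.2% and 20.3% in heterozygotes at stage 6-7, against 19.9% and 18.9% at stage 5. RpS14a and RpS14b are near-identical genes side by side on arm X, so reads that match both are not assigned and their split is uncertain. RpS14b held 29.3% and 29% in homozygotes at stage 6-7, against 28.7% and 29.3% at stage 5, and 29.9% and 31.3% in heterozygotes at stage 6-7, against 28.9% and 30.2% at stage 5.

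**Figure D5:**
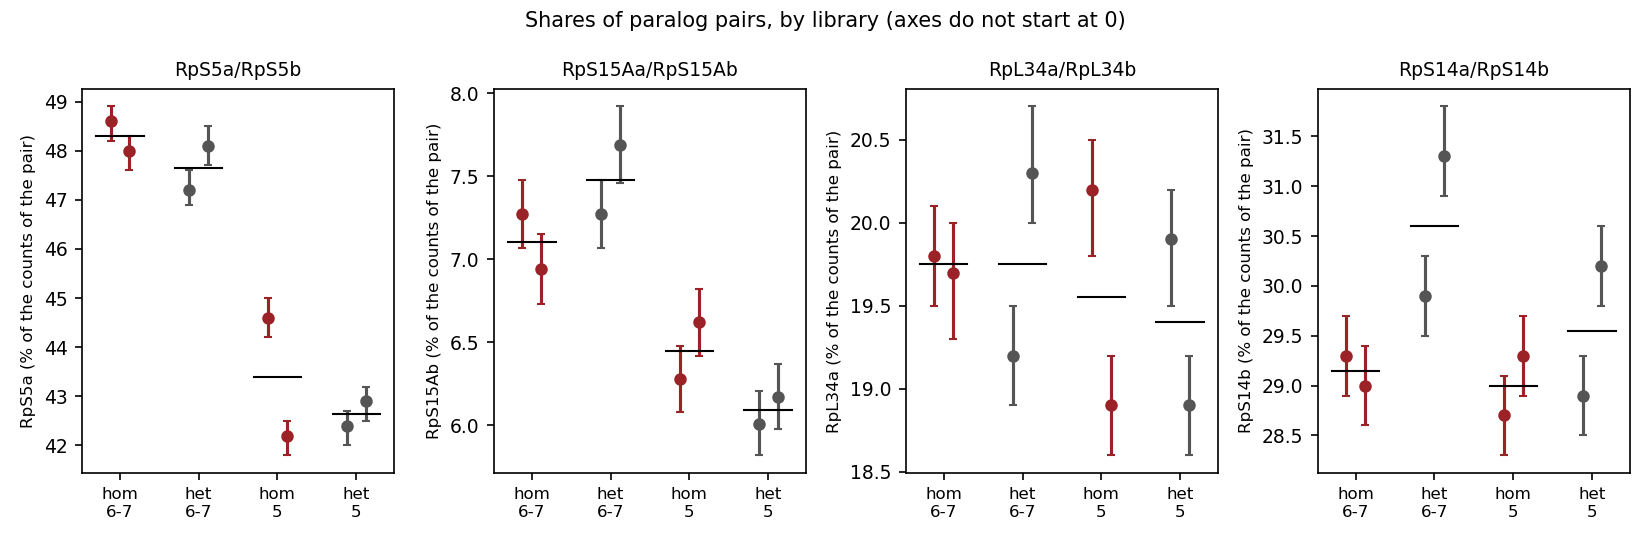
Share of a paralog pair's reads held by its less counted member (%), by library, for the 4 pairs with more than a trace of both copies (hom, homozygous; het, heterozygous). Bars on points are exact 95% binomial intervals, horizontal lines are group means, and the axes do not start at 0. RpS5a lies between 47.2% and 48.6% at stage 6-7 and between 42.2% and 44.6% at stage 5, RpS15Ab is also higher in all stage 6-7 libraries, and RpL34a and RpS14b overlap between stages.

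In the remaining pairs one copy supplied nearly all reads. RpL37-2 held 0.039% and 0.0693% of its pair's reads in homozygotes at stage 6-7, against 0.0257% and 0.0178% at stage 5. In heterozygotes it held 0.0508% and 0.084% at stage 6-7, with 30 and 42 reads, against 0.0315% and 0.0356% at stage 5, with 17 and 20 reads. All 4 stage 6-7 libraries lay above all 4 stage 5 libraries, on 10 to 42 reads each. RpS19b had 33 and 53 reads in heterozygotes at stage 6-7, against 31 and 19 at stage 5, and its log2 difference of 0.78 did not pass (edgeR adjusted p = 0.118). Its share of its pair overlapped between the stages there, with 0.0559% and 0.113% at stage 6-7, against 0.0577% and 0.0341% at stage 5. A rare copy can also draw misplaced reads from its abundant paralog, which counts alone cannot show.

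The 3 members that were too low to test all lie on arm 3R. RpS28a had 2 and 1 reads in homozygotes at stage 6-7, against 7 and 6 in heterozygotes, and 1 and 1 reads in homozygotes at stage 5, against 8 and 5 in heterozygotes. RpL10Aa had 2 and 1 reads in homozygotes at stage 6-7, against 0 and 0 in heterozygotes, and 11 and 1 in homozygotes at stage 5, against 0 and 0 in heterozygotes. RpS10a had 1 and 5 reads in homozygotes at stage 6-7, against 3 and 5 in heterozygotes, and 0 and 0 in homozygotes at stage 5, against 2 and 1 in heterozygotes. In libraries of this depth a count of 0 allows up to 3 reads, so differences among most of these values are not detectable.

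Other genes related to the ribosome and its machinery were followed with the members. The 4 tested genes outside the symbol rule were sta, Rack1, RpLP0-like and RpL24-like, and the -like genes are not taken here as ribosomal proteins. Of these, RpLP0-like and Rack1 fell at stage 6-7 in homozygotes (log2 -0.47 and -0.26, edgeR adjusted p = 0.00215 and 0.0304). RpLP0-like also fell in heterozygotes (log2 -0.35, edgeR adjusted p = 0.0137). In homozygotes and heterozygotes 29.0% and 26.5% of all genes were called lower. With library totals alone RpLP0-like kept its call in homozygotes (adjusted p = 0.0429) and lost it in heterozygotes (0.119), and Rack1 lost its own (0.581). RpLP0-like is related to the stalk scaffold, and Rack1 is a scaffold on the small subunit. The gene sta, which encodes a small subunit protein, had a log2 difference of -0.16 in homozygotes (adjusted p = 0.144) and -0.11 in heterozygotes. Adding it raised the members' share of gene counts to 15.3% at stage 6-7 and 15.6% at stage 5 in homozygotes.

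Of 5 matched elongation factor genes, 4 fell at stage 6-7 in homozygotes and 2 in heterozygotes, with 0 rises, against 29.0% and 26.5% of all genes called lower. With library totals alone, which move the median of all genes to 0.20 in homozygotes and 0.17 in heterozygotes, 1 of the 5 (eEF1delta) was called lower in homozygotes and 0 in heterozygotes, against 21.2% and 20.7% of all genes. The values that follow are on the TMM scale. The level of eEF2, the translocase that works at the stalk, was 9343 and 9505 CPM in homozygotes at stage 6-7, against 12114 and 11314 CPM at stage 5 (log2 -0.31, edgeR adjusted p = 0.00496). In heterozygotes it was 9795 and 8733 CPM at stage 6-7, against 10888 and 10645 CPM at stage 5 (log2 -0.22, adjusted p = 0.0399). The nucleotide exchange factor eEF1delta fell by 0.59 on the log2 scale in homozygotes and by 0.31 in heterozygotes (adjusted p = 0.000609 and 0.037).

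Of 23 tested genes of rRNA synthesis and ribosome assembly, 7 rose and 6 fell at stage 6-7 in homozygotes, against 31.1% and 29.0% of all genes, and 7 rose and 4 fell in heterozygotes, against 28.4% and 26.5%. The shares in homozygotes lie near those of all genes. With library totals alone 10 rose and 3 fell in homozygotes, against 38.9% and 21.2% of all genes. On that scale 9 rose and 3 fell in heterozygotes, against 35.8% and 20.7%. The rises included nclb (log2 1.15 in homozygotes and 1.17 in heterozygotes), the export adaptor gene Nmd3 (1.13 and 1.09) and the kinase gene RIOK2 (1.07 and 1.12), and Polr1A, the largest subunit of RNA polymerase I, rose by 0.79 in heterozygotes. The nucleolar gene Surf6 fell by 0.83 in homozygotes. Neither change was limited to 1 genotype. With library totals alone Polr1A had log2 differences of 0.88 in homozygotes and 0.95 in heterozygotes, and Surf6 had -0.63 and -0.35. Of 10 tested regulators, 2 rose and 3 fell in homozygotes, and 1 rose and 3 fell in heterozygotes, set against the same shares of all genes.

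Among those regulators, the Myc antagonist Mnt fell (log2 -2.03 in homozygotes and -2.56 in heterozygotes), as did Dref, which binds the DRE promoter element (-0.65 and -0.47), and Trf2, a TBP-related factor that serves ribosomal protein gene promoters (-0.50 and -0.56). Thor, the Drosophila 4E-BP, rose (log2 1.13 and 1.40, edgeR adjusted p = 0.0445 and 0.0253). In these 4 lists 0 genes were called between the genotypes at either stage, with the same backgrounds as for the members. Of 5 tested germ plasm genes (aub, gcl, osk, pgc and tud), 3 fell and 1 rose at stage 6-7 in each genotype, where 29.0% and 26.5% of all genes fell. These genes did not move together and are not taken as a measure of pole cells. Their summed level was 195 and 203 CPM in homozygotes and 202 and 218 CPM in heterozygotes at stage 6-7, against 240 and 251 CPM in homozygotes and 258 and 253 CPM in heterozygotes at stage 5. Their part in the values of RpS5b and RpS19b was not tested.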

How the data were processed

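RNA of whole embryo pools was sequenced as 100 bp paired reads with 200 bp inserts, per the labels' protocols. The authors deposited 1 table of whole-number read counts per gene for each of the 8 libraries, not normalized. The submitters' processing notes name STAR and HTSeq. Versions, genome build, annotation and strand setting: not given in the sources used here. Overlapping genes and near-identical copies may therefore hold misassigned reads. Summary lines that name no gene held 12.9% to 18.2% of each table and were left out. Of 17468 gene IDs, 17188 matched the Ensembl 115 annotation of BDGP6.54, which gave symbols, positions and exon lengths, and 280 did not. Of 87 annotated members, 5 matched no counted ID.

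The low-count filter was filterByExpr (minimum count 10), which kept 9360 genes. TMM factors were 1.058 to 1.068 at stage 6-7 and 0.907 to 0.957 at stage 5. The model had 1 mean per group over all libraries and was run in edgeR 4.0.16 under R 4.3.3 (robust glmQLFit, glmQLFTest). Calls are at a Benjamini-Hochberg adjusted p under 0.05 over all genes tested. SE is the absolute log2 difference over the square root of F. Groups came from the labels. Shares have exact 95% binomial intervals. No test was made over the members as a list.

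The members and lists were chosen with earlier results of these data known. Named members are those called, with at most 10 per direction in each stage comparison, both copies of paralog pairs, the 5 highest and 5 lowest per length, those removed by the filter, and up to 4 genes of each other list. RpLP1, RpL11, RpL40, RpS6 and the members named at stage 5 between genotypes fall outside that rule and were added after their values were seen. Tor, S6k, eEF1alpha1, eEF5, vas, nos and mist matched no counted ID. Alternatives were DESeq2 1.42.0, limma-voom (limma 3.58.1), glmTreat against 1.5-fold, RLE size factors, TMM without the members, library totals, no filter, a filter of 10 CPM in 2 libraries, a replicate block, and each library left out in turn. Scaling to the members' summed counts and leaving out 2 libraries together were chosen after seeing the data.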

Additional observations from a re-analysis of the deposited data

How the results depend on the processing

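Each group has 2 libraries, and the stage counts move with which of them are used. Among shares, counts and medians recomputed under the alternatives, 243 stayed within the replicate spread or within 1.5 times the count and 63 did not. Of single called members, 196 recomputed values kept their call and 88 lost it, and 0 turned round. Where a library is left out, the lone sample of its group is assumed to vary like the other groups.

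For stage 6-7 over stage 5 in homozygotes, the main fit gave 35 members lower, 2 higher and a median of -0.23. Library totals alone gave 0 lower, against 21.2% of all genes, and a median of -0.03. No filter gave 57 lower, against 20.0% of all genes. At least 10 CPM in 2 libraries gave 12 of 77 lower and 0 higher, against 34.1% and 36.9% of all genes. DESeq2 and limma-voom each gave 1 higher, against 29.2% and 31.0% of all genes. The glmTreat test against 1.5-fold gave 0 in both directions, against 13.6% of all genes lower and 16.5% higher. Leaving out 1 library gave 0 to 66 lower, 0 to 2 higher and medians from -0.34 to -0.11. In heterozygotes the main fit gave 2 lower, 1 higher and a median of -0.08. Library totals gave 0 lower and 3 higher, against 20.7% and 35.8% of all genes, and a median of 0.07. DESeq2 gave 0 higher, against 26.2% of all genes. With glmTreat 0 were called in both directions, against 11.7% of all genes lower and 12.6% higher. Leaving out 1 library gave 0 to 13 lower, 0 or 1 higher and medians from -0.19 to 0.03. For homozygotes over heterozygotes, leaving out 1 library gave medians from 0.04 to 0.25 and 0 to 2 calls higher at stage 5, and medians from -0.09 to 0.14 at stage 6-7. The interaction median ran from -0.26 to -0.02.

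Without both homozygous stage 5 replicate 1 and heterozygous stage 6-7 replicate 1, 69 members were lower and 2 higher in heterozygotes (median -0.21), against 28.9% and 29.2% of all genes, and 30 were lower and 1 higher in homozygotes, against 27.8% and 28.7%. In that fit 13 were higher in homozygotes than in heterozygotes at stage 6-7 (median 0.14), against 0.902% of all genes, the stage 5 median was 0.04 and the interaction median 0.10. Scaled to the members' summed counts, 0 members were lower in either stage comparison, against 16.4% of all genes in homozygotes and 18.2% in heterozygotes. On that scale the medians were 0.01 in homozygotes, 0.00 at stage 5 between genotypes and 0.00 for the interaction, as it sets the family's total equal. For the other moves, the cause was not tested.

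The members' share of counts, taken over all counts including those in no gene, was 12.5% in homozygotes and 12.3% in heterozygotes at stage 6-7, and 13% in homozygotes and 12.1% in heterozygotes at stage 5. Without mitochondrially encoded genes it was 15.3% in homozygotes at stage 6-7, and with sta 15.3% there and 14.4% in heterozygotes at stage 5.

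Replicate numbers are shared by all groups in the labels. Deviations of same-numbered libraries from their group means correlated over genes at -0.077 to 0.122, so the libraries were taken to share only a number. With the replicate block, 63 members were lower and 1 higher at stage 6-7 in homozygotes.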

Other observations

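Transcript length went with the genotype difference among the members. Over the 77 members above 10 CPM, the log2 difference of homozygotes over heterozygotes at stage 5 had a Spearman correlation of -0.48 with the log2 length of the longest annotated transcript (Pearson r -0.45), and at stage 6-7 one of 0.26 (Pearson r 0.26). At stage 5 the median was 0.15 for the 38 longer members and 0.19 for the 39 at or under 887 bp. The points share the same libraries and are not independent, and the log2 difference of replicate 1 over replicate 2 of homozygotes at stage 5 had a Spearman correlation of -0.29 with length. The part of length or of RNA quality in these values was not tested.

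Relative to the family, with libraries scaled to the members' summed counts (a scaling chosen after seeing the data), 2 members rose at stage 6-7 in homozygotes, RpL37-2 (log2 1.38, edgeR adjusted p = 0.0316) and RpS19b (log2 1.50, adjusted p = 0.0244), against 33.8% of all genes. Both rest on 9 to 42 reads in these libraries, and with the TMM scale each lost its call when 1 library was left out. In heterozygotes 1 rose, RpS15Ab (log2 0.35, adjusted p = 0.0352), against 25.9% of all genes. RpS5b had differences of -0.07 and -0.20 in homozygotes and heterozygotes on that scale and was not called in either (adjusted p = 0.603 and 0.133). Its paralog RpS5a had 0.22 and 0.09 and was not called either (adjusted p = 0.0885 and 0.486). RpLP0 had -0.08 and -0.19 (adjusted p = 0.522 and 0.125).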
